A study of Homo sapiens with 8 samples.

Results

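The TNF receptor family and its TRAF adaptors were followed here through 10 genes of the 17649 in the table, read by gene symbol. They comprised 8 receptors (TNFRSF1A, TNFRSF10A, TNFRSF10B, TNFRSF11B, TNFRSF12A, TNFRSF21, LTBR and CD40) and 2 adaptors (TRAF1 and TRAF2), and all 10 were found. The samples were 8 RNA-Seq libraries of MDA-MB-231, an estrogen receptor–negative human breast cancer cell line. The CML group (n = 4) was exposed to 1 µM carboxymethyllysine (CML), an advanced glycation end product that forms when sugars react with lysine residues, for 48 hours. The control group (n = 4) received PBS, and both groups were kept in low-glucose medium. The comparison asks which transcripts differ after CML exposure. It rests on a single cell line, a single dose and a single time point. The sources used here do not say whether the 4 replicates came from separate cultures, so p-values measure only the spread between these libraries, which may be technical. In bulk RNA a change in the number of cells that express a gene and a change in RNA per cell cannot be told apart.

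TNF receptors are membrane proteins with cysteine-rich extracellular repeats that bind trimeric ligands of the TNF superfamily. Receptors with a cytoplasmic death domain (TNFRSF1A, TNFRSF10A, TNFRSF10B and TNFRSF21 among the 10 genes) recruit death-domain adaptors, whereas LTBR, CD40 and TNFRSF12A bind TRAF proteins directly. TRAF2 is a scaffold that brings the ubiquitin ligases cIAP1 and cIAP2, encoded by BIRC2 and BIRC3, to the receptor. TRAF1 lacks the RING domain of other TRAF proteins and joins TRAF2 in mixed trimers. TNFRSF11B, osteoprotegerin, is secreted and acts as a decoy for the ligands RANKL and TRAIL.

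Upstream DNA is shown for TRAF1, TRAF2 and BIRC3, the pair of adaptors and a ligase they recruit, because these are set side by side in the results that follow, and BIRC3 is printed as the one of these genes with matches to the motif searched. Each sequence covers the 250 bases before an annotated start site (RefSeq, GRCh38.p14), written 5′ to 3′ on the gene's own strand, with matches to the 10-base κB consensus, searched on both strands, in capitals. The windows were chr9:120929172-120929421 on the minus strand for TRAF1 (the start site listed first), chr9:136886266-136886515 on the plus strand for TRAF2 and chr11:102317234-102317483 on the plus strand for BIRC3.
TRAF1: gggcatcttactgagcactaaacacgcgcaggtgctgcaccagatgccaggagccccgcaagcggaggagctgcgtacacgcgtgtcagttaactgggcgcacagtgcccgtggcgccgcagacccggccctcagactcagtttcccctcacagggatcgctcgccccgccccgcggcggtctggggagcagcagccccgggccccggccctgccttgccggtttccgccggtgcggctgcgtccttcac
TRAF2: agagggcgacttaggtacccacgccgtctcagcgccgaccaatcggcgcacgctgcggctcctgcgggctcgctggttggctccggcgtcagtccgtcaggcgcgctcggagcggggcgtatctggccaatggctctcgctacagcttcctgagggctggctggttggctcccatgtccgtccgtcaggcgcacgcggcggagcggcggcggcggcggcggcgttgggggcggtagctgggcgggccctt
BIRC3: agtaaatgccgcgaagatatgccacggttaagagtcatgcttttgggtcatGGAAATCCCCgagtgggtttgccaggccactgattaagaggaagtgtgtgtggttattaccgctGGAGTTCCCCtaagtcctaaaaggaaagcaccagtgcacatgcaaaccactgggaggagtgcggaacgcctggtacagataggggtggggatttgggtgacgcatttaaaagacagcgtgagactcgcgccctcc
The κB consensus, a binding motif of NF-κB family proteins, matched at 2 places in the BIRC3 window, beginning 199 and 135 bases before the start. RefSeq windows were matched for 5 of the 10 genes (TNFRSF1A, TNFRSF21, LTBR, TRAF1 and TRAF2) with 7 start sites, and 0 of these 7 windows held a match. The windows of TRAF2 and LTBR lie inside the gene spans given below, so the bases before their outer starts were not searched. BIRC2, the neighbour of BIRC3 that encodes cIAP1, had 2 windows and 0 matches. TRAF3, another adaptor (named after its values were seen), had 1 match beginning 33 bases before its start. Its log2 fold change, CML against control, was 0.0056. Over all 35116 windows of this length, 9.96% held one. A match is a description of the letters and not a bound site.

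None of the 10 genes passed the threshold between the CML and control groups (adjusted p below 0.3 over all genes, limma). Values are normalized CPM as deposited (counts scaled to library size, with TMM normalization factors of edgeR named in the study's methods). Fold changes are on the log2(CPM + 1) scale, CML against control. At that threshold 158 of 17649 genes were called, 0.895%, of which 119 were higher and 39 lower with CML. No gene of the table passed the stricter 0.05. At an unadjusted p below 0.05, 3 of the 10 genes stood out, TNFRSF10A, TNFRSF21 and TRAF1, all with higher values after CML. Among 13047 genes averaging 1 CPM or more, 8.29% reached that unadjusted level and 5.65% did so with higher values after CML. The fold change was above 0 for 9 of the 10 genes with a median of 0.05, against a median of 0.01 over the 13047 genes, of which 58.8% lay above 0.

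**Figure D1:**
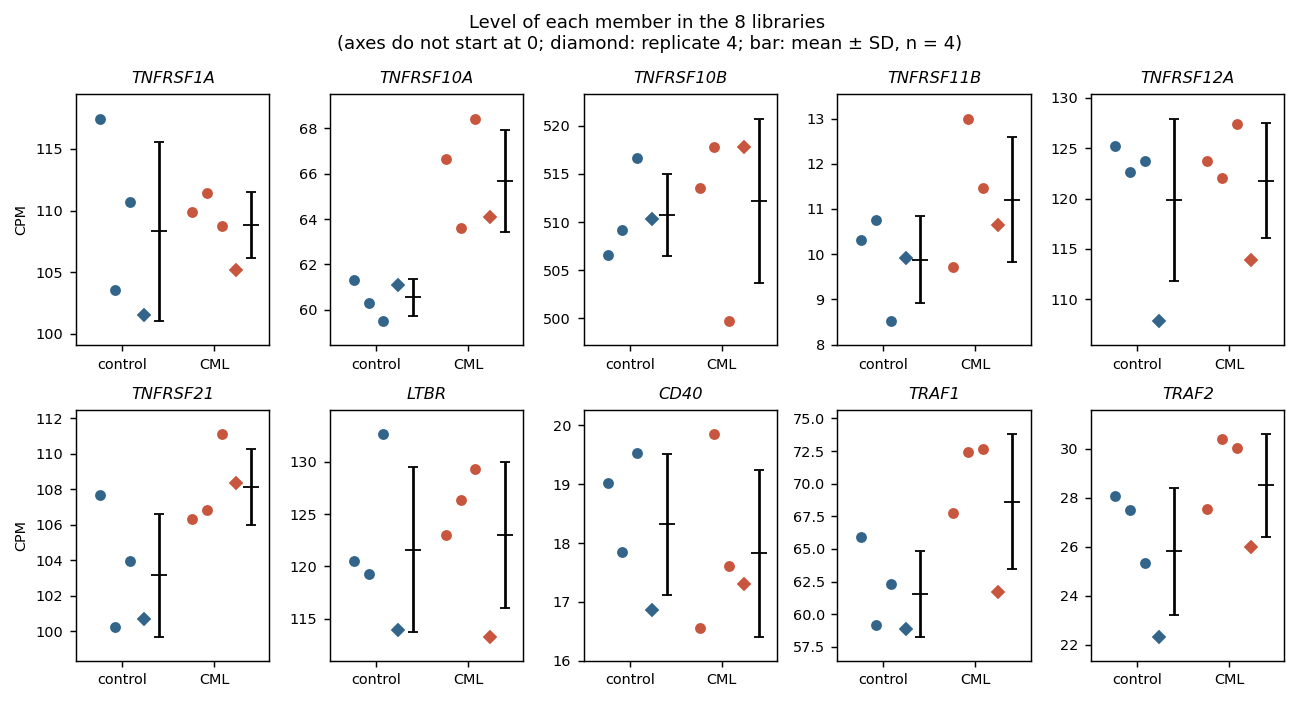
CPM of each of the 10 genes (y axis, own scale per panel) in the 4 control (blue) and 4 CML (red) libraries, with replicate 4 of each group as a diamond and the mean ± SD as a bar. TNFRSF10A is the gene whose groups do not overlap (59.5 to 61.3 CPM against 63.6 to 68.4 CPM), and the diamonds are the lowest points of both groups for TNFRSF1A, TNFRSF12A, LTBR, TRAF1 and TRAF2.

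The death receptors showed a small difference for TNFRSF10A and next to none for TNFRSF10B, which lies on the same chromosome. TNFRSF10A (ENSG00000104689.9, chromosome 8, 23190452 to 23225102, GRCh38), the TRAIL receptor DR4, was at 61.3, 60.3, 59.5 and 61.1 CPM in control replicates 1 to 4 and at 66.6, 63.6, 68.4 and 64.1 CPM in CML replicates 1 to 4. All 4 CML libraries were above all 4 control libraries, a separation found for 4.34% of the 13047 genes. The mean was 60.6 ± 0.816 CPM in controls and 65.7 ± 2.26 CPM with CML (SD, n = 4), 8.49% higher. Its log2 fold change was 0.12 (SE 0.03, 95% interval 0.05 to 0.18, unadjusted p = 0.0029, adjusted p = 0.307), just outside the threshold. Without control replicate 4 the fold change was also 0.12, with an adjusted p of 0.267, in a fit that called 690 genes in all. Leaving out any other single library gave an adjusted p of 0.375 to 0.541. Each library held an estimated 984 to 1189 reads of it. Antisense genes overlap it (TNFRSF10A-AS1 and TNFRSF10A-DT among them), and how strand was treated in counting these libraries is not given in the sources used here, so reads of the 2 strands may be mixed.

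TNFRSF10B (ENSG00000120889.13, chromosome 8, 23020133 to 23069031), the TRAIL receptor DR5, was the most abundant of the 10 genes in CPM. Its controls were at 507, 509, 517 and 510.3 CPM and its CML libraries at 514, 518, 499.7 and 518 CPM. The groups overlapped fully, with means of 511 ± 4.27 and 512 ± 8.56 CPM. The fold change of 0.0042 had the narrowest interval of the 10 genes, -0.03 to 0.04. RHOBTB2 overlaps this gene on the other strand.

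TNFRSF1A (ENSG00000067182.7, chromosome 12, 6328771 to 6342076), the main receptor for soluble TNF, was at 117, 104, 111 and 102 CPM in controls and at 109.9, 111, 109 and 105 CPM with CML. The CML values lay inside the control range. Its fold change was 0.01 (SE 0.05, 95% interval -0.10 to 0.12). TNFRSF21 (ENSG00000146072.6, chromosome 6, 47231532 to 47309905), the death receptor DR6, was at 108, 100.3, 104 and 101 CPM in controls and at 106, 107, 111 and 108 CPM with CML. Control replicate 1 was as high as the CML libraries and the other 3 controls were below them. The fold change was 0.07 (SE 0.03, unadjusted p = 0.038, adjusted p = 0.609), an increase of 4.85% in the mean.

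Receptors that signal through TRAF proteins without a death domain showed no separation. TNFRSF12A (ENSG00000006327.13, chromosome 16, 3020368 to 3022383), the TWEAK receptor Fn14, was at 125, 123, 124 and 108 CPM in controls and at 124, 122, 127 and 114 CPM with CML. Replicate 4 was the lowest library of both groups, and the other 6 libraries lay between 122 and 127 CPM. LTBR (ENSG00000111321.11, chromosome 12, 6375160 to 6391566), the lymphotoxin-β receptor, was at 121, 119, 133 and 114 CPM in controls and at 123, 126, 129 and 113 CPM with CML. Here again both lowest values were those of replicate 4. The fold changes were 0.02 for TNFRSF12A (95% interval -0.11 to 0.16) and 0.02 for LTBR (95% interval -0.12 to 0.15). CLDN6 overlaps TNFRSF12A and SCNN1A overlaps LTBR on the opposite strand. CD40 (ENSG00000101017.13, chromosome 20, 46118314 to 46129858), the receptor for CD40 ligand on antigen-presenting and some epithelial cells, was at 19.0, 17.9, 19.5 and 16.9 CPM in controls and at 16.6, 19.8, 17.6 and 17.3 CPM with CML. It was the one gene of the 10 with a fold change below 0, at -0.04 (95% interval -0.20 to 0.12). Between 278 and 371 reads per library lay behind these values.

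TNFRSF11B (ENSG00000164761.9, chromosome 8, 118923557 to 118951885), the decoy receptor osteoprotegerin, was the least abundant of the 10 genes. Its controls were at 10.3, 10.8, 8.53 and 9.92 CPM and its CML libraries at 9.73, 13.0, 11.5 and 10.6 CPM. The means were 9.88 ± 0.965 and 11.2 ± 1.39 CPM, and the groups overlapped. The fold change, 0.16, had the widest interval of the 10 genes, -0.08 to 0.40 (unadjusted p = 0.152, adjusted p = 0.815). It was 0.10 both without CML replicate 2 (adjusted p = 0.954) and without control replicate 3 (adjusted p = 0.937). With an estimated 141 to 243 reads per library, this was also the shallowest measurement.

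Both adaptors had higher mean values with CML, with overlapping groups. TRAF1 (ENSG00000056558.11, chromosome 9, 120902393 to 120929171) was at 65.9, 59.2, 62.4 and 58.9 CPM in controls and at 67.7, 72.4, 72.6 and 61.7 CPM with CML. CML replicates 1 to 3 were above every control, and CML replicate 4 was within the control range. The mean was 61.6 ± 3.28 CPM in controls and 68.6 ± 5.16 CPM with CML, 11.4% higher, with a fold change of 0.15 (SE 0.06, 95% interval 0.01 to 0.30, unadjusted p = 0.044, adjusted p = 0.626). TRAF2 (ENSG00000127191.18, chromosome 9, 136881958 to 136926607) was at 28.1, 27.5, 25.3 and 22.3 CPM in controls and at 27.6, 30.4, 30.0 and 26.0 CPM with CML. Replicate 4 was the lowest library in each group. The mean was 25.8 ± 2.60 CPM in controls and 28.5 ± 2.09 CPM with CML, with a fold change of 0.14 (SE 0.08, 95% interval -0.06 to 0.34, adjusted p = 0.796). Without control replicate 4 the fold change was 0.08 (adjusted p = 0.762). Leaving out 1 library gave 0.08 to 0.18, the highest without CML replicate 4.

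Replicate 4 deviated from the other libraries of its group along GC content, with a negative correlation over the 10 genes too. The same measure was not computed for the other replicates. Control replicate 4 was the lowest control for 6 of the 10 genes and CML replicate 4 the lowest CML library for 5. The transcripts of TNFRSF12A, LTBR, TRAF2 and TNFRSF1A had 62.6%, 61.6%, 61.3% and 57.5% GC, and replicate 4 was lowest in both groups for all 4. TNFRSF11B, the most AT-rich at 39.9% GC, was not lowest in either replicate 4. Against the trend, it was 0.08 lower on the log2 scale in CML replicate 4 than the mean of the other CML libraries. For TRAF2, control replicate 4 was 0.26 lower on the log2 scale than the mean of the other 3 controls, and for TNFRSF12A 0.20 lower. Across the 10 genes, Spearman's rho between GC content and this deviation was -0.79 in control replicate 4 and -0.60 in CML replicate 4. Across 12928 genes it was -0.59 and -0.53. These are descriptions across genes that share a library, and genes are not independent replicates.

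**Figure D2:**
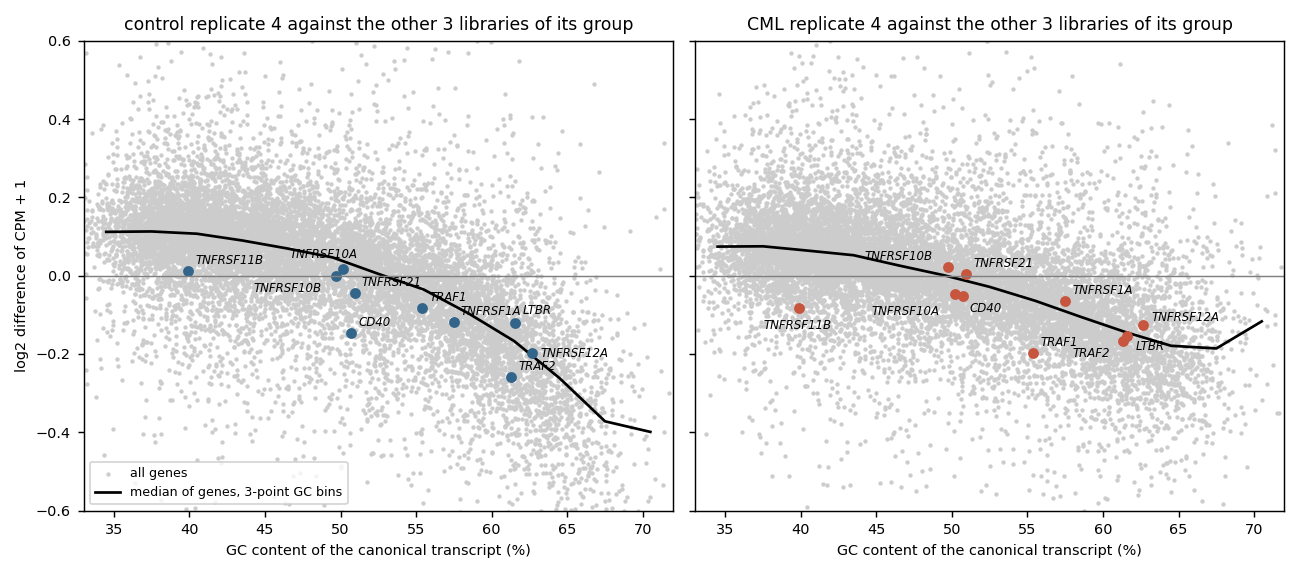
GC content of the canonical transcript (x axis, %) against the log2 difference of CPM + 1 between replicate 4 and the mean of the other 3 libraries of its group (y axis), for control (left) and CML (right), with all genes in grey, their median in 3-point GC bins as a line and the 10 genes in color. TRAF2, TNFRSF12A and LTBR lie low at the GC-rich end in both panels, while 166 and 104 of the 12928 genes fall outside the drawn range.

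When each library was freed of a smooth trend along GC content and transcript length, TRAF1, TRAF2 and TNFRSF10A passed the threshold, all 3 higher with CML. That fit called 825 of 12928 genes, 6.38%, and 4.05% were called as higher with CML. TRAF1 had a fold change of 0.15 (95% interval 0.06 to 0.24, adjusted p = 0.110), TNFRSF10A of 0.11 (0.03 to 0.18, adjusted p = 0.216) and TRAF2 of 0.14 (0.03 to 0.25, adjusted p = 0.296). TRAF2 was thus just inside the limit of 0.3. With all 8 libraries the fold changes were close to those of the CPM as deposited. Between the 2 fits the SE fell from 0.06 to 0.04 for TRAF1 and from 0.08 to 0.05 for TRAF2. For TNFRSF10A, at 50.2% GC, the SE went from 0.03 to 0.04. The second fit also left out genes averaging under 1 CPM, which by itself changed the SE. Dropping those genes without the removal gave an SE of 0.057 for TRAF1, 0.076 for TRAF2 and 0.043 for TNFRSF10A. None of these 3 genes was called in that fit (limma, adjusted p = 0.568, 0.782 and 0.565). When control replicate 4 was left out as well, only TRAF1 of the 10 genes was called (0.13, adjusted p = 0.220), with TNFRSF10A at 0.10 (adjusted p = 0.333) and TRAF2 at 0.11 (adjusted p = 0.491). When CML replicate 4 was left out instead, TRAF1 (0.18, adjusted p = 0.036) and TNFRSF10A (0.12, adjusted p = 0.246) were called and TRAF2 was not (0.15, adjusted p = 0.338). These 2 combined settings were chosen after seeing the data. Over all 19 alternative settings, the adjusted p ranged from 0.036 to 0.860 for TRAF1, from 0.296 to 0.934 for TRAF2 and from 0.216 to 0.565 for TNFRSF10A. TNFRSF21 was at 0.06 with an adjusted p of 0.5003 after this removal.

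**Figure D3:**
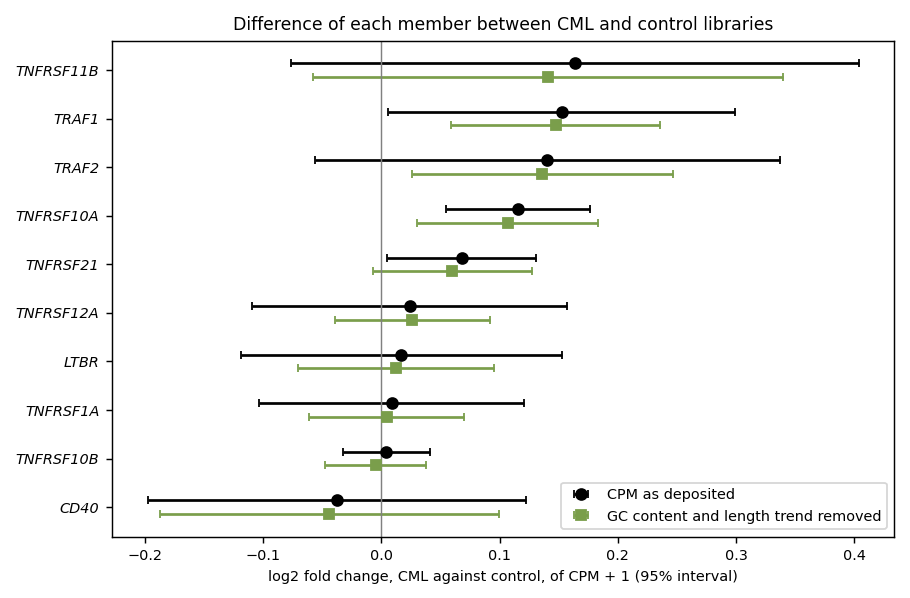
Log2 fold change of CPM + 1, CML against control, with its 95% interval (x axis) for each of the 10 genes, from the CPM as deposited (black circles) and after removal of the GC content and length trend (green squares). The intervals of TRAF1 and TRAF2 are narrower in the second fit, which also leaves out genes averaging under 1 CPM. There they lie above 0 (0.06 to 0.24 and 0.03 to 0.25), and with all 8 libraries the points stay close.

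Levels of the 10 genes were compared per kilobase of the canonical transcript, on the CPM per kilobase scale over all 8 libraries. TNFRSF10B (128 CPM per kilobase, range 125 to 130) and TNFRSF12A (124, range 110.4 to 130.4) headed the order and did not differ beyond their spread. LTBR (57.3) and TNFRSF1A (50.0) followed with overlapping ranges. TNFRSF21 was at 29.4 CPM per kilobase, TNFRSF10A at 23.5 and TRAF1 at 15.0, each with a range apart from its neighbours. TRAF2 (11.98) and CD40 (10.7) overlapped, and TNFRSF11B was lowest at 5.05 CPM per kilobase, with a range of 4.09 to 6.23. The 2 TRAIL receptors with a death domain thus differed in level, TNFRSF10B being higher in every library.

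The other genes of the pathway were read from 8 lists holding 83 genes, of which 68 were in the table and 62 averaged 1 CPM or more. None of the 62 passed the threshold (limma), 5 reached an unadjusted p below 0.05, near the 8.29% of all genes averaging 1 CPM or more, and the median fold change was 0.0043. The fold change was above 0 for 32 and below 0 for 30 of them. With GC content and length removed, 7 of 61 were called, with BIRC2, BIRC3, NFKB2 and TIMP3 higher and MLKL, RBCK1 and RHBDF1 lower (RHBDF1, an inactive rhomboid protein, was named after its values were seen), where 6.38% of all genes were called.

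Among receptor-proximal adaptors, ubiquitin enzymes and kinases, 0 of 19 passed the threshold and 3 reached an unadjusted p below 0.05 (all genes 8.29%), all 3 with higher values after CML (all genes 5.65%). BIRC3 (cIAP2), whose upstream window is printed above, was at 124, 122, 123 and 142 CPM in controls and at 139, 139, 135 and 142 CPM with CML. Control replicate 4 stood with the CML libraries and the other 3 controls were below them. Its fold change was 0.12 (SE 0.05, adjusted p = 0.641), and 0.17 without control replicate 4 (adjusted p = 0.070). That omission called 690 genes in all. BIRC2 (cIAP1) was at 169, 183, 182 and 193 CPM in controls and at 190.2, 196, 192 and 207 CPM with CML, a fold change of 0.11 (SE 0.04, adjusted p = 0.615) with overlapping groups. With GC content and length removed, BIRC2 (0.08, adjusted p = 0.125) and BIRC3 (0.09, adjusted p = 0.212) passed the threshold, as TRAF1 and TRAF2 did. BIRC2 and BIRC3 are AT-rich (37.4% and 35.8% GC), in contrast to TRAF2, and control replicate 4 was their highest control. CYLD, a deubiquitinase that removes chains built at these receptors, had a fold change of 0.10 (SE 0.04, adjusted p = 0.593) and was not called after the removal. RBCK1 (HOIL-1L, a subunit of the linear ubiquitin ligase), the highest of this list per kilobase at 53.3 CPM per kilobase, was at 212, 208, 208 and 186 CPM in controls and at 189.9, 191, 196 and 188 CPM with CML. Its fold change was -0.09 (adjusted p = 0.706). RBCK1 passed the threshold with GC content and length removed (-0.09, adjusted p = 0.097) and without control replicate 4 (-0.13, adjusted p = 0.118).

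In the death-inducing complex, 5 of 6 genes averaged 1 CPM or more and 0 were called. MLKL, the pseudokinase that executes necroptosis, was at 25.2, 26.0, 26.3 and 27.2 CPM in controls and at 22.2, 23.1, 23.0 and 25.3 CPM with CML. CML replicate 4 reached just above the lowest control. The fold change was -0.16 (SE 0.05, unadjusted p = 0.010, adjusted p = 0.440). It passed the threshold without CML replicate 4 (-0.19, adjusted p = 0.256) and with GC content and length removed (-0.16, adjusted p = 0.197). RIPK3, the kinase upstream of MLKL, had a mean of 0.287 CPM, below the limit of 1 (it was named after its values were seen). FADD, the adaptor that death receptors recruit, was highest of this list per kilobase (33.4 CPM per kilobase) and had a fold change of 0.07 (95% interval -0.05 to 0.20).

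The remaining lists held no gene called from the CPM as deposited. Of 11 other TNF receptor superfamily members averaging 1 CPM or more, 6 had a fold change above 0 and 5 below, and 0 reached an unadjusted p below 0.05. TNFRSF10D, a TRAIL decoy receptor and the highest of these per kilobase (30.4 CPM per kilobase), had a fold change of -0.06 (95% interval -0.16 to 0.04). The 5 other TRAF adaptors lay between -0.02 and 0.02, and TRAF7, the highest per kilobase at 28.0 CPM per kilobase, was at 0.0036 (95% interval -0.17 to 0.18). Of 8 TNF superfamily ligands averaging 1 CPM or more, 7 had a fold change below 0, with a list median of -0.06 and 0 at an unadjusted p below 0.05. TNFSF15 (TL1A), the highest ligand per kilobase (25.6 CPM per kilobase), was at -0.01. TNF, FASLG and 5 other ligands of the list had no row under their symbols, so no values are given for them.

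The noncanonical NF-κB branch (3 genes) had a median fold change of 0.09, which was the value of RELB (95% interval -0.17 to 0.36, adjusted p = 0.940, limma). MAP3K14 was at -0.05 (95% interval -0.23 to 0.12). RELB and MAP3K14 were named after their values were seen. NFKB2, the p100 precursor, was at 140, 135, 137 and 122 CPM in controls and at 145, 145, 147 and 133 CPM with CML. Replicate 4 was the lowest of both groups for this 61.2% GC transcript. Its fold change was 0.09 (95% interval -0.03 to 0.22, adjusted p = 0.762), and 0.05 without control replicate 4 (adjusted p = 0.726). With GC content and length removed it was 0.09 with an adjusted p of 0.104. In the JNK branch 2 of 6 genes had a fold change above 0. MAP2K7, a JNK kinase and the highest of this list per kilobase (18.1 CPM per kilobase), was at -0.02 (95% interval -0.22 to 0.19). In the receptor shedding list, TIMP3, an inhibitor of the sheddase ADAM17 that releases TNF receptors, was at 250.4, 253, 261 and 267 CPM in controls and at 271, 272, 268 and 281 CPM with CML. All 4 CML libraries were above the controls, with a fold change of 0.08 (SE 0.03, unadjusted p = 0.012, adjusted p = 0.465). Such a separation was found for 1 of the 62 other pathway genes and for 4.34% of all genes averaging 1 CPM or more. TIMP3 passed the threshold with GC content and length removed (0.07, adjusted p = 0.125) and without control replicate 4 (0.10, adjusted p = 0.241). The latter fit called 690 genes in all.

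**Figure D4:**
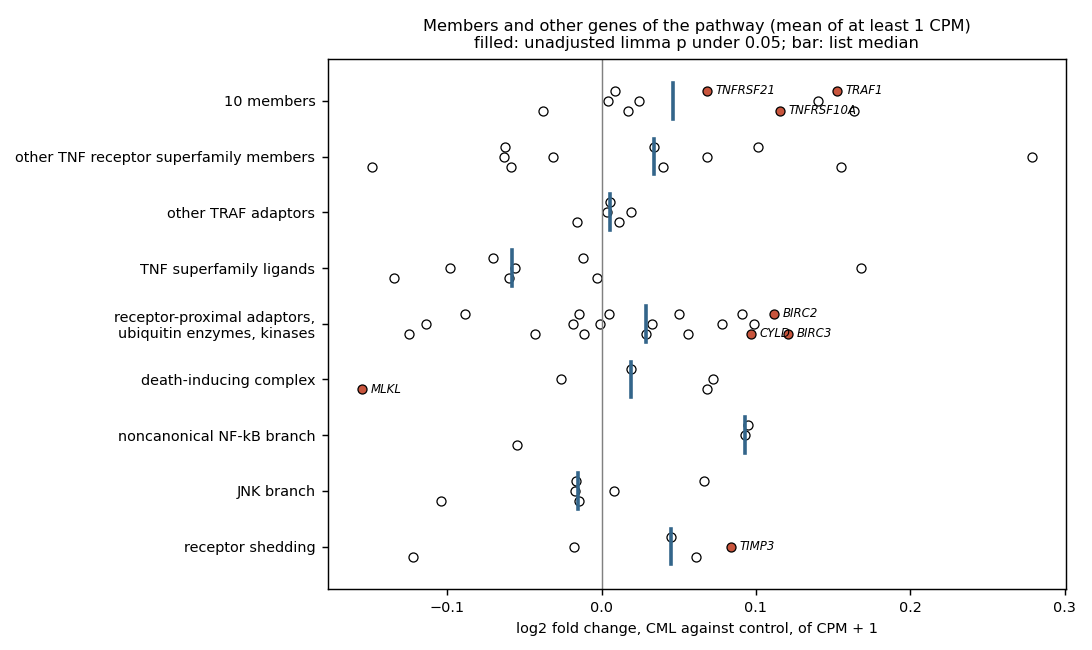
Log2 fold change of CPM + 1, CML against control (x axis), for the 10 genes and the 62 other pathway genes averaging 1 CPM or more, 1 circle per gene and 1 line per list, with the list median as a bar and unadjusted limma p below 0.05 filled. The lists straddle 0, with medians from -0.06 for the ligands to 0.09 for the noncanonical NF-κB branch (3 genes, 1 of them below 0).

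Over the 8 libraries, the 3 genes whose log2(CPM + 1) values were most like those of TNFRSF10A, out of 13046 searched, were IFFO2 (Pearson's r = 0.97), GPX3 (r = 0.96) and PHF19 (r = 0.95). All libraries enter this measure, so it includes the difference between groups, and it is given as a description.

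The libraries held an estimated 16161820 to 18954888 reads, and a two-sided exact permutation test of the totals between the groups gave p = 0.714 (smallest possible p = 0.0286). Markers of the cell line were high in every library, with VIM at 4014 to 4243 CPM and CD44 at 803 to 885 CPM. The luminal receptor gene PGR was at 0 to 0.11 CPM, the epithelial cadherin CDH1 at 0.31 to 0.95 CPM, the leukocyte marker PTPRC at 0.12 to 0.65 CPM and the fibroblast marker DCN at 0 to 0.06 CPM, while other markers of the same cell types were present at low levels. COL1A1 was at 9.40 to 13.3 CPM, PDGFRB at 3.07 to 4.88 CPM, LUM at 0.605 to 1.71 CPM, GATA3 at 3.47 to 5.61 CPM, CD14 at 0.684 to 1.73 CPM, PECAM1 at 2.36 to 3.84 CPM and VWF at 0.118 to 0.747 CPM. Summed over the list, fibroblast markers were at 14.4 to 16.1 CPM in controls and 14.9 to 18.8 CPM with CML, and leukocyte markers at 0.912 to 2.27 CPM and 1.06 to 1.58 CPM. KRT8, at 183 to 239 CPM, and EPCAM, at 12.7 to 16.3 CPM, were present. Of the 21 marker genes listed, 17 were in the table and 0 were called from the CPM as deposited (limma, 0 at an unadjusted p below 0.05). With GC content and length removed, 2 of the 11 tested passed the threshold, where 6.38% of all genes were called. KRT8 (0.11, adjusted p = 0.176) and CD44 (0.05, adjusted p = 0.249) were both higher with CML in the fit that also called TRAF1, TRAF2 and TNFRSF10A. Their part in those results was not tested.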

How the data were processed

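RNA of MDA-MB-231 cells was extracted with RNeasy Plus Mini Kits, and libraries were sequenced on an Illumina HiSeq machine according to the study's methods and the extraction label, although another label names NextSeq. The authors deposited a single table of normalized CPM for 8 libraries, with 17681 gene rows, and per the labels it was made with edgeR on hg38. For the patient tumors the study's methods name a stranded TruSeq kit and TopHat alignment to hg19, a build other than the one labelled here. For these libraries the aligner, the counting tool and its strand setting are not given in the sources used here. Columns sum to 986730 to 1014124 CPM. The most common low value in a library was taken as 1 read, and on that scale 87.5% to 89.0% of values above 0 lay within 0.1 of a whole read. Reads were therefore used only as estimated depth and no count model was run. Estimated totals were 16161820 to 18954888 reads.

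Rows with the same symbol were averaged (32 symbols with more than 1 row), which left 17649 genes. On log2(CPM + 1), 4 control and 4 CML libraries, grouped by the labels, were compared in limma (version 3.58.1, R version 4.3.3, mean-variance trend on). P-values were Benjamini-Hochberg adjusted over all 17649 genes, and a gene was called at an adjusted p below 0.3, the limit the study used for its heatmap, with 0.05 as the stricter limit. The log2(CPM + 1) scale understates changes of genes with low CPM. Intervals are 95% intervals of the limma coefficient.

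GC content and length were those of canonical transcripts (GENCODE v44 mapped to GRCh37), known for 17418 genes. In the alternative that removes them, each library's deviation from the gene's mean was regressed on linear and quadratic terms of GC content and of log2 length, over 12928 genes averaging 1 CPM or more. The remaining settings tried were separate rows, dropping genes averaging under 1 CPM, 0.1 as pseudocount, median centring, quantile normalization, no trend, a replicate block, and each library left out. The removal of GC content and length without control or CML replicate 4 was added after seeing the data. Gene positions and upstream sequences were taken from RefSeq (GRCh38.p14).

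Of the other lists, the text names genes averaging 1 CPM or more with an unadjusted p below 0.05 (at most 5 per list), and the gene highest per kilobase, plus markers and the 3 genes most like the one with the smallest p. Genes outside this rule are marked as chosen after their values were seen. The 10 genes and all lists were chosen with earlier results of these data known. The tests were also run on simulated data. Permutation tests used scipy 1.17.1 and figures matplotlib 3.10.9.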

Additional observations from a re-analysis of the deposited data

Results flagged for a closer look

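Among 46 groups of 4 libraries examined (the 10 genes, the 12 other genes named from the lists and the estimated depth, in controls and in CML), 5 held a library far from the other 3 by Dixon's gap criterion, where chance flags about 1 group in 20. In control replicate 4, TNFRSF12A was at 108 CPM, below the other controls at 123 to 125 CPM, and RBCK1 was at 186 CPM, below 208 to 212 CPM. BIRC3 was at 142 CPM in control replicate 4, above the other controls at 122 to 124 CPM. The estimated depth of that library was 17729470 reads, against 16560010 to 16690298 in the other controls. TRAF7 was at 89.9 CPM in CML replicate 4, below the other CML libraries at 107 to 109 CPM. TNFRSF12A, RBCK1 and TRAF7 transcripts have 62.6%, 60.5% and 60.5% GC and the BIRC3 transcript has 35.8%. The part of GC content in these 4 genes' values was not tested gene by gene.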

How the results depend on the processing

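Of 19 alternatives, TRAF1, TRAF2, TNFRSF10A, TNFRSF11B, TNFRSF21 and CD40 kept the sign of their fold change in all, and the 10 genes had 0 calls in all but those that removed GC content and length and the omission of control replicate 4. With GC content and length removed there were 3 calls among the 10 genes, 7 among the other pathway genes and 825 among all genes. With the replicate block added to that removal the counts were 3, 7 and 859. Median centring called 73 genes in all. Leaving out 1 library gave 0 to 1 calls among the 10 genes, 0 to 4 among the other pathway genes and 20 to 690 among all genes. Leaving out replicate 4 with GC content and length removed, chosen after seeing the data, gave 1, 5 and 642 calls for control and 2, 6 and 639 for CML, and TRAF2 was called in neither. The 690 came without control replicate 4, when TNFRSF10A, BIRC3, RBCK1, TIMP3 and CFLAR (named after its values were seen) were called, and the 20 without CML replicate 2. The omission of CML replicate 4 called MLKL alone of the pathway genes. The cause was not tested.

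Signs reversed for genes near 0. With median centring the fold changes were -0.011 for TNFRSF1A, -0.016 for TNFRSF10B, -0.0028 for LTBR and -0.016 for TRAF7, and with quantile normalization -0.015, -0.018, -0.0028 and -0.017. With GC content and length removed, with or without the block, TNFRSF10B was at -0.0047 and TRAF7 at -0.0012. Leaving out control replicate 4 as well gave -0.0033 for TNFRSF1A, -0.017 for TNFRSF10B and -0.0079 for TRAF7, and leaving out CML replicate 4 gave -0.011 for TNFRSF10B. Leaving out 1 library from the values as deposited gave -0.021 to 0.048 for TNFRSF1A, -0.0011 to 0.016 for TNFRSF10B, -0.025 to 0.055 for TNFRSF12A, -0.014 to 0.059 for LTBR, -0.038 to 0.069 for TRAF7, -0.030 to 0.018 for TNFSF15 and -0.089 to 0.041 for MAP2K7.

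Deviations of same-numbered control and CML libraries from their group means correlated at 0.20, -0.030, -0.065 and 0.33, so the numbers were not taken as pairs. The replicate block alone called 0 of the 10 genes, 0 other pathway genes and 189 genes in all. A lower CPM gave wider intervals, as for TNFRSF11B with 141 to 243 estimated reads per library.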
